A study of Oryza sativa Indica Group with 27 samples.

Results

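Gene expression after 1 h of dehydration was compared with that of untreated plants in wild-type Nipponbare rice (WT), from 2 of the 27 samples of the series. The 1 h sample was whole plants at the three-leaf stage harvested 1 h after the culture solution had been removed, and the 0 h sample was untreated plants grown in the same way. The methods describe Nipponbare as a japonica cultivar, while the organism field of the labels reads Indica Group. Each condition had 1 poly(A) RNA library, so the values used here give no replicate check, test or error, and each change is a difference between 2 libraries. The study itself tested this contrast with Cuffdiff. It also measured the marker gene Dip1 and some transcription factors by RT-PCR, and neither set of results is used here. The rule kept genes with at least 5 FPKM (the number of fragments of a gene, divided by its exon length and by the mapped fragments of the library) in one of the 2 libraries, which left 16350 of the 37869 genes in the table. The change was expressed as the log2 ratio of 1 h over 0 h after 0.1 FPKM was added to both values, so that a log2 change of 1 is 2-fold. The 0 and 1 h libraries of 2 further plants, with 1 library each, served for comparison. The first was erf71, a Nipponbare line that overexpresses the AP2/ERF transcription factor (TF) OsERF71 and that the labels call AP2 transgenic, and the second was Vandana, an Indica variety labelled as drought tolerant. The promoter of the transgene, the number of transgenic lines and the number of plants in each sample are not given in the sources used here.

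A rice plant that loses water first signals through abscisic acid, jasmonate and calcium, and these signals act within minutes to hours on TFs of the AP2/ERF, NAC, zinc finger, bHLH and WRKY families. Jasmonate signalling works by release from repression: JAZ proteins hold bHLH and other factors inactive, are degraded when jasmonate rises, and are themselves among the early targets, which resets the pathway. The genes for protective proteins, transport and reduced photosynthesis are usually reached later, through those TFs.

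The summed FPKM was 737471 at 1 h and 841545 at 0 h, and across all 9 mRNA libraries it lay between 702034 and 857472. The number of reads behind these values is unknown, since FPKM was deposited without counts and its low values did not form whole multiples of a common unit. Rubisco small subunit and the 3 other identifiers set down as leaf genes changed little, with log2 changes between -0.25 and 0.06. The 4 identifiers set down as root genes together had 188 FPKM at 1 h and 863 FPKM at 0 h in WT, and all 4 were at least 2-fold lower, with log2 changes between -4.58 and -1.43. In erf71 the same 4 summed to 440 FPKM at 1 h and 859 FPKM at 0 h. Except for Rubisco small subunit, no source used here names these identifiers, so their tissue is unchecked, and the part of tissue composition in the changes below was not tested. In whole plants, fewer cells of a type and less RNA per cell cannot be told apart.

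Among the 16350 genes, 1607 (9.83%) were at least 2-fold higher at 1 h and 1567 (9.58%) were at least 2-fold lower. The remaining 13176 genes, 80.6%, stayed within 2-fold. The 2 directions were nearly even at 2-fold, but the larger changes were mostly rises in level: 779 genes (4.76%) were at least 4-fold higher against 402 (2.46%) at least 4-fold lower, and 277 genes were at least 16-fold higher against 88 at least 16-fold lower. The 5th and 95th percentiles of the log2 change were -1.42 and 1.93. The median gene stood at -0.19, and 64.1% of genes were below 0. Scaling the libraries by the median ratio of expressed genes moved this median to 0.01 and changed the split to 1961 genes higher and 1115 lower, so that the share of higher genes among those called was 63.8% in place of 50.6%. Small falls in single genes are therefore to be read against a general shift of -0.19.

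**Figure D1:**
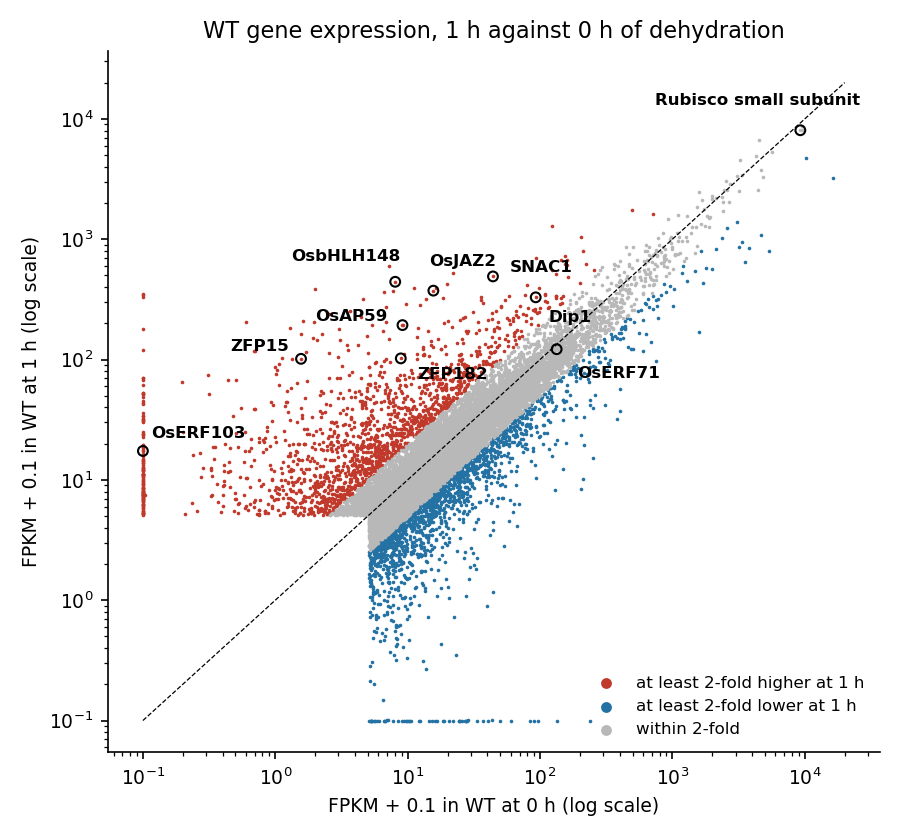
FPKM plus 0.1 of each of the 16350 genes in the WT library at 1 h (vertical axis) against the WT library at 0 h (horizontal axis), both on log scales, with 1 point a gene and the dashed line marking equal levels. The 1607 genes at least 2-fold higher spread far above the line at low 0 h levels, while OsERF71 and Rubisco small subunit lie close to it; points at the 0.1 margin are genes listed at or near 0 in one library.

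The 680 genes at least 4-fold higher and above 0 in both libraries had a median of 27.7 FPKM at 1 h and 2.67 FPKM at 0 h, and the 367 genes at least 4-fold lower had a median of 1.97 FPKM at 1 h and 13.6 FPKM at 0 h. These levels are a description only, since the filter and the threshold together fix a low level in the lower library. Among the most highly expressed genes, decreases outnumbered increases. Of the 297 genes with a mean of at least 300 FPKM over the 2 libraries, 55 (18.5%) were at least 2-fold lower and 18 (6.06%) at least 2-fold higher, whereas of the 945 genes with 100 to 300 FPKM, 107 (11.3%) were higher and 94 (9.95%) lower. Summed over all genes, falls came to -220758 FPKM and rises to 116683 FPKM, and the 10 largest falls made up 18.5% of the summed falls. The net of -104075 FPKM is the difference between the summed FPKM of the libraries, so it would vanish with both scaled to the same sum. The counts by level above were not repeated with scaled libraries. The deepest fall in FPKM belonged to Os11g0704500, with 3254 FPKM at 1 h and 16221 FPKM at 0 h. In erf71 the same gene had 15689 FPKM at 1 h and 15339 FPKM at 0 h. The largest rise in FPKM belonged to Os08g0200300, a Module 5 member, with 6726 FPKM at 1 h and 4522 FPKM at 0 h, which is a log2 change of only 0.57.

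Of the 16350 genes, 134 were listed at 0 in one of the 2 libraries, 99 of them at 0 h and 35 at 1 h. The 12 highest and the 12 lowest log2 changes all came from genes below 0.001 FPKM in the lower library, so no fold is given for them. Among them, Os08g0137900 was listed at 0 at 0 h and had 352 FPKM at 1 h, and in erf71 it had 45.9 FPKM at 1 h and 2.36 FPKM at 0 h. Os11g0680500 was listed at 0 at 1 h and had 239 FPKM at 0 h, but it was listed at 0 in both erf71 libraries. In erf71, 5 of the 12 highest genes were also at least 2-fold higher and 2 of the 12 lowest at least 2-fold lower. Over all genes these shares were 4.8% and 3.13%. Others in each set passed 2-fold in the opposite direction in erf71. Their log2 changes in erf71 were -10.3, -9.34, -8.18 and -1.87 among the 12 highest, and 4.72 and 2.12 among the 12 lowest. A value of 0 in such tables can be a failed estimate. Identifiers that do not end in 00 made up 36.6% of these 134 genes and 6.75% of all genes past the filter.

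Dip1, the dehydration marker with which the time points of the study were chosen, had 329 FPKM at 1 h and 92.6 FPKM at 0 h, a log2 change of 1.83. In erf71 it had 317 FPKM at 1 h and 86.8 FPKM at 0 h, so both plants showed nearly the same marker levels at both times. At 6 h the marker stood at 2583 FPKM in WT. OsERF71 itself hardly moved in WT, with 122 FPKM at 1 h and 133 FPKM at 0 h. In erf71 it had 172 FPKM at 1 h and 201 FPKM at 0 h, which is above the WT level at both times. With 1 library each, this difference was not tested. OsERF71 also had 187 FPKM in WT at 6 h, and 159 and 138 FPKM in the Vandana libraries labelled 1 h and 0 h. The sign of its small WT change depends on the scaling, with a log2 change of -0.13 as deposited and 0.06 with the median-ratio scaling. Its 3 direct neighbours in the TF network of the study, Os03g0701700, Os10g0346600 and Os11g0157200, had log2 changes of -0.29, 0.03 and -0.02 in WT.

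The methods and text of the study name 35 TFs and TF-linked genes by identifier, of which 31 passed the filter. Of these 31, 13 were at least 2-fold higher at 1 h, 1 was at least 2-fold lower and 17 stayed within 2-fold, against 9.83% higher, 9.58% lower and 80.6% within 2-fold over all genes. Their median log2 change was 0.51 against -0.19 over all genes. The study selected many of these genes on the same libraries, so their direction is not independent evidence. In erf71, 7 of the 31 were at least 2-fold higher, against 4.8% of all genes.

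The 2 jasmonate-linked genes were both far higher at 1 h. OsbHLH148, a bHLH factor of jasmonate signalling, had 443 FPKM at 1 h and 7.95 FPKM at 0 h, which is 55.6-fold. OsJAZ2, a JAZ repressor, had 374 FPKM at 1 h and 15.5 FPKM at 0 h, which is 24.0-fold. Over the 16216 genes past the filter and above 0 in both libraries, the median at 0 h was 15.9 FPKM, and both lay below it in untreated plants. At 1 h both lay well above the upper quartile of 33.4 FPKM of the same filtered genes. They parted afterwards: at 0, 1 and 6 h OsbHLH148 had 7.95, 443 and 165 FPKM, and OsJAZ2 had 15.5, 374 and 375 FPKM. In erf71, OsbHLH148 reached 38.5 FPKM at 1 h, against 10.1 FPKM at 0 h, and OsJAZ2 reached 83.3 FPKM at 1 h, against 11.1 FPKM at 0 h.

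Of the 5 AP2/ERF factors named, 4 passed the filter and 3 were at least 2-fold higher. OsAP59 had 193 FPKM at 1 h and 9.04 FPKM at 0 h, a log2 change of 4.40, and OsAP37 had 77.0 FPKM at 1 h and 26.0 FPKM at 0 h, a log2 change of 1.56. Overexpression of either of these ERF factors is known to raise drought tolerance in rice. Their courses differed, with 9.04, 193 and 41.7 FPKM at 0, 1 and 6 h for OsAP59 and 26.0, 77.0 and 128 FPKM for OsAP37. OsERF103 was listed at 0 at 0 h and had 17.3 FPKM at 1 h. OsDREB1F, a factor of the DREB branch, which binds dehydration-responsive elements, was at 0.93 FPKM at 1 h and listed at 0 at 0 h, below the filter.

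SNAC1, a NAC factor known to act in guard cells and in drought tolerance, was the most abundant of the named TFs at 1 h. It had 491 FPKM at 1 h and 44.0 FPKM at 0 h, a log2 change of 3.48. Its level at 6 h was 1010 FPKM. ONAC132 had 7.98 FPKM at 1 h and 1.42 FPKM at 0 h. The other 3 NAC factors past the filter stayed within 2-fold. OsNAC5, also known from stress responses, had 135 FPKM at 1 h and 85.0 FPKM at 0 h, a log2 change of 0.67. ONAC039 had 35.5 FPKM at 1 h and 28.0 FPKM at 0 h, and reached 223 FPKM only in the 6 h library. The NAC group thus held both a gene that was high after 1 h and genes that were little changed at that time.

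Among the 5 zinc finger factors, 3 were at least 2-fold higher. ZFP15 had 101 FPKM at 1 h and 1.47 FPKM at 0 h, and ZFP182, a C2H2 protein known for its part in salt and drought tolerance, had 102 FPKM at 1 h and 8.77 FPKM at 0 h. The 2 genes are next to each other in the table and had almost equal levels at 1 h, from 0 h levels that differed several-fold. At 0, 1 and 6 h, ZFP182 had 8.77, 102 and 557 FPKM and ZFP15 had 1.47, 101 and 198 FPKM. ZFP252 had 15.6 FPKM at 1 h and 3.81 FPKM at 0 h, which is 4.09-fold, while OsC3H32 (0.22) and zinc-finger protein R2931 (-0.40) stayed within 2-fold.

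OsWRKY45, a WRKY factor known from salicylic acid-dependent defence, had 214 FPKM at 1 h and 40.5 FPKM at 0 h. Its level was transient, with 40.5, 214 and 35.4 FPKM at 0, 1 and 6 h. WRKY78 and the gene similar to WRKY2 had log2 changes of -0.32 each. Of the 12 other TFs past the filter, Os06g0670300 (log2 change 1.61) and Os04g0543500 (1.37) were at least 2-fold higher, and the gene similar to HAHB-6, of the homeodomain-leucine zipper kind, was at least 2-fold lower, with 3.09 FPKM at 1 h and 7.26 FPKM at 0 h. The TF Os04g0676700 was at 0.83 and passed 2-fold only with the libraries scaled by the median ratio (1.02) or to the same sum (1.02).

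**Figure D2:**
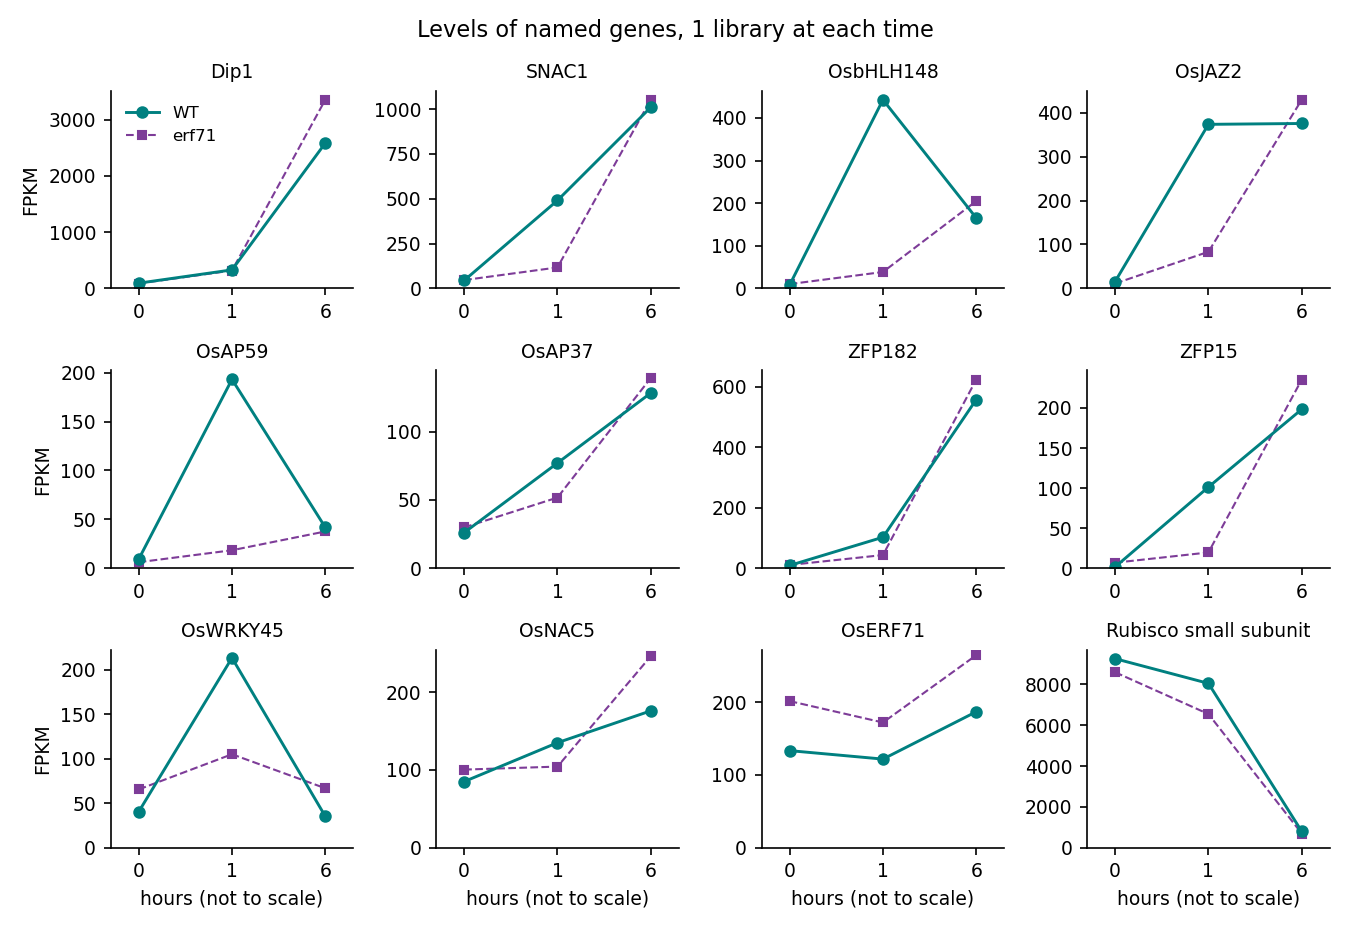
FPKM (vertical axis, from 0, a scale for each gene) of 12 named genes at 0, 1 and 6 h (horizontal axis, spacing not to scale), in WT (circles, solid line) and erf71 (squares, dashed line), with 1 library a point. OsbHLH148, OsAP59 and OsWRKY45 peak at 1 h in WT, with 443, 193 and 214 FPKM, whereas Dip1 has 329 FPKM at 1 h and 2583 FPKM at 6 h and Rubisco small subunit changes little at 1 h.

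From the gene clusters of its TF network the study selected 5 as modules, described by their enriched functions: drought-related TFs (Module 1), translation (Module 2), oxidative stress (Module 3), cell division (Module 4) and photosynthesis (Module 5). The modules were built in part from these same libraries, so the counts below describe the change and are not independent of it, and membership comes from a shortened copy of the network lists. That copy holds only some of the genes of each module, for Module 3 only a small part, so each count, median and sum below is that of the listed genes and not of the whole module. Of the 553 listed genes of Module 1, 538 passed the filter, and 235 of these (43.7%) were at least 2-fold higher and 2 at least 2-fold lower, against 9.83% and 9.58% over all genes. Its median log2 change was 0.71, and its TFs and other genes were alike in this, with 50 of 103 TFs and 185 of 435 other genes at least 2-fold higher. The summed level of the listed genes was 36428 FPKM at 1 h and 17034 FPKM at 0 h, which is 4.94% and 2.02% of the FPKM in each library. Within the module, the TF Os04g0301500 had 0.50, 203 and 27.2 FPKM at 0, 1 and 6 h, with its peak in the 1 h library. Os06g0216300, not a TF, had 238 FPKM at 1 h and 2.45 FPKM at 0 h. The member with the deepest decrease, Os04g0634800, had 6.36 FPKM at 1 h and 42.8 FPKM at 0 h.

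The few listed genes of Module 3 were lower at 1 h. Of the 43 listed, 33 passed the filter, and all 33 were below 0, as were 64.1% of all genes. At least 2-fold lower were 25 of them (75.8%) and 0 were at least 2-fold higher, against 9.58% and 9.83% over all genes. Their median log2 change was -1.61, against -0.19 over all genes. The summed level of the 43 genes was 515 FPKM at 1 h and 1723 FPKM at 0 h. Among its TFs, Os11g0700500 had 5.33 FPKM at 1 h and 62.9 FPKM at 0 h, and Os01g0975300 had 79.9 FPKM at 1 h and 306 FPKM at 0 h. The deepest decrease among them was that of Os03g0107300, with 8.35 FPKM at 1 h and 203 FPKM at 0 h, which is also one of the 4 identifiers set down as root genes. Those 4 moved down together with this module in WT (188 FPKM at 1 h and 863 FPKM at 0 h), and their part in the result was not tested. In erf71 the median of the 33 genes was -0.64, against -0.11 over all genes, and 7 of them were at least 2-fold lower, against 3.13% of all genes. The 4 root identifiers lay between -1.76 and -0.34 in erf71.

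Module 4, of cell division, shifted moderately. Of its 972 listed genes, 593 passed the filter. Of these, 94 (15.9%) were at least 2-fold lower and 5 (0.84%) at least 2-fold higher, against 9.58% and 9.83% over all genes. Their median was -0.44, against -0.19 over all genes. With the libraries scaled by the median ratio, 59 were lower and 9 higher, and the median was -0.25. Over all 16273 genes past the filter with that scaling, 1115 were lower and 1961 higher, and the median was 0.01. The deepest decrease was that of Os10g0551800, with 1.71 FPKM at 1 h and 32.5 FPKM at 0 h, and Os05g0217000 had 17.8 FPKM at 1 h and 117 FPKM at 0 h. The 24 listed TFs past the filter included 6 that were at least 2-fold lower, with Os10g0377300 at 1.45 FPKM at 1 h and 9.42 FPKM at 0 h. The 4 root identifiers were lower in the same library, as given above, and their part in this module was not tested either.

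The listed genes of Modules 2 and 5 were seldom past 2-fold at 1 h. In Module 2, of translation, 4 of 378 genes (1.06%) were at least 2-fold higher and 10 (2.65%) at least 2-fold lower, against 9.83% and 9.58% over all genes. However, 339 of the 378 were below 0, against 64.1% of all genes. Their median of -0.31 lay close to the general shift of -0.19. With the libraries scaled by the median ratio its median was -0.11. The largest increase in the module was that of Os07g0162400, with 147 FPKM at 1 h and 25.8 FPKM at 0 h. In Module 5, of photosynthesis, 3 of 461 genes (0.65%) were at least 2-fold higher and 1 (0.22%) was at least 2-fold lower, against the same shares over all genes. Its median log2 change was 0.00 as deposited and 0.19 with the median-ratio scaling. Its listed genes summed to 143917, 139373 and 24954 FPKM at 0, 1 and 6 h, so that nearly the whole decrease of this abundant group lay after the first hour. As a share of the FPKM in each WT library they were higher at 1 h, with 18.9% against 17.1% at 0 h. In erf71 the sum was 95455 FPKM at 1 h and 127223 FPKM at 0 h, which is 12.6% and 15.4% of the FPKM in each library, with a median log2 change of -0.40.

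**Figure D3:**
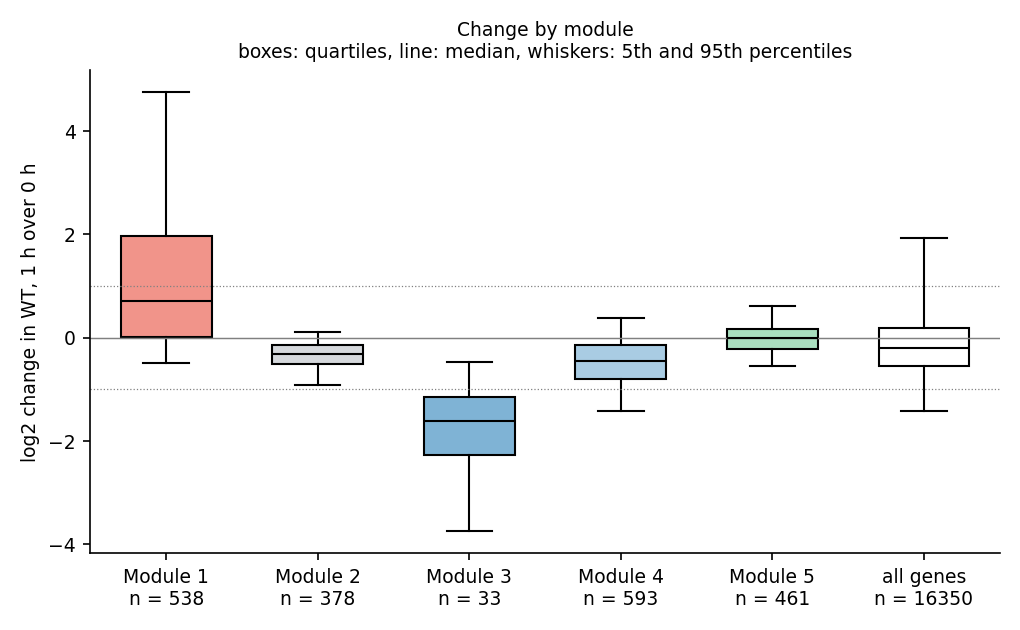
Log2 change in WT, 1 h over 0 h (vertical axis), of the listed genes past the filter in each module and of all 16350 genes; boxes span the quartiles, the line is the median, whiskers reach the 5th and 95th percentiles and dotted lines mark 2-fold. The listed genes of Module 1 have a median of 0.71, the 33 of Module 3 one of -1.61 and those of Module 5 one of 0.00, against -0.19 over all genes.

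The 9 genes of photosynthesis and biosynthesis named by the study that passed the filter, of 11, all stayed within 2-fold, as did 80.6% of all genes, so this count sets them little apart. Photosystem II reaction center W protein, a small subunit of the complex that splits water, had the deepest decrease, with 2544 FPKM at 1 h and 4402 FPKM at 0 h, a log2 change of -0.79. Rubisco small subunit, part of the enzyme that fixes carbon dioxide, had 8043 FPKM at 1 h and 9251 FPKM at 0 h. Fructose-1,6-bisphosphatase, an enzyme of carbon fixation and sugar synthesis, had 276 FPKM at 1 h and 346 FPKM at 0 h, and ferredoxin-dependent glutamate synthase, an enzyme of nitrogen assimilation, had 815 FPKM at 1 h and 756 FPKM at 0 h. These changes lay on both sides of the general shift of -0.19. At 6 h all 4 were far lower in WT, with 507 FPKM for the photosystem protein, 802 FPKM for Rubisco small subunit, 23.2 FPKM for the bisphosphatase and 117 FPKM for the synthase.

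Genes at least 4-fold higher often stood next to each other. The table is ordered by identifier, which follows position on the chromosome, and 163 of the 779 genes (20.9%) had a neighbouring entry that was also at least 4-fold higher, whereas 4.73% of all genes past the filter had such a neighbour. Of the 402 genes at least 4-fold lower, 40 (9.95%) had a neighbour that was lower, against 2.43% of all genes. The higher genes formed 60 runs of 2, 9 runs of 3 and 4 runs of 4 entries, and the lower genes formed 20 runs of 2 and none longer. OsbHLH148 closed a run of 4 on chromosome 3 with log2 changes between 3.16 and 5.78, and OsJAZ2 stood in a run of 3 on the same chromosome with log2 changes between 4.58 and 6.14. Each entry of these 2 runs was also at least 2-fold higher in erf71, where the lowest log2 change was 1.79 in the first run and 1.08 in the second. ZFP182 and ZFP15 formed a pair. A run of 4 on chromosome 8 that includes Os08g0137900 held 3 entries listed at 0 in WT at 0 h and reached 389 FPKM at 1 h. Near-identical gene copies and overlapping entries can share reads, so such runs are uncertain as numbers of separate genes.

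Since erf71 and WT share no library, the changes of both plants can be set side by side. Of the 16350 genes, 784 (4.8%) were at least 2-fold higher at 1 h in erf71 and 511 (3.13%) at least 2-fold lower. The 584 genes that were at least 2-fold higher in both plants were 36.3% of those in WT and 74.5% of those in erf71, and the 230 genes lower in both were 14.7% of those in WT and 45.0% of those in erf71. The classes by size of the WT change, higher and lower, hold only genes above 0 in both WT libraries. At 16-fold or more higher these are 178 of 277 genes, and classes with the genes listed at 0 were not formed. Within these classes the share of genes also higher in erf71 grew with the size of the WT change. Among genes 2- to 4-fold higher in WT, 19.3% of 828 were at least 2-fold higher in erf71, and this share was 41.8% of 330 genes at 4- to 8-fold, 65.7% of 172 genes at 8- to 16-fold and 77.0% of 178 genes at 16-fold or more. The median log2 change in erf71 over these 4 classes was 0.52, 0.82, 1.23 and 2.22, below the WT range of each class. The filter and the classes were set on the 2 WT libraries alone. Genes chosen for large ratios in one pair of libraries tend to have smaller ratios in another pair. These lower medians therefore cannot show whether erf71 changed less than WT. Of the genes lower in WT, those also at least 2-fold lower in erf71 were 9.53% of 1165 genes at 2- to 4-fold, 20.5% of 239 at 4- to 8-fold, 50.7% of 75 at 8- to 16-fold and 39.6% of 53 at 16-fold or more. These shares and the difference between the plants were not tested, with 1 library each.

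The Vandana libraries went against WT. Of the 16350 genes, 1249 (7.64%) were at least 2-fold lower in the library labelled 1 h than in the library labelled 0 h, and 528 (3.23%) were at least 2-fold higher. The classes by size of the WT change again hold only genes above 0 in both WT libraries. Among genes 16-fold or more higher in WT, 82.0% of 178 were at least 2-fold lower in the Vandana library labelled 1 h and 4.49% were higher. For genes 2- to 4-fold higher in WT, 38.6% of 828 were lower and 2.54% were higher. In Module 1, 0 of the 538 listed genes past the filter were at least 2-fold higher in the Vandana library labelled 1 h and 213 were at least 2-fold lower. The genes lower in WT were opposed less often. At 2- to 4-fold lower in WT, 10.7% of 1165 genes were at least 2-fold higher in Vandana, and at 4- to 8-fold 18.4% of 239. This share was 42.7% of 75 genes at 8- to 16-fold and 35.8% of 53 at 16-fold or more. In that last class 20.8% were at least 2-fold lower in Vandana, as in WT. The labels of these 2 Vandana libraries are therefore in doubt. Every Vandana direction given here is by label and would turn round if the labels were exchanged, which was not tested.

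**Figure D4:**
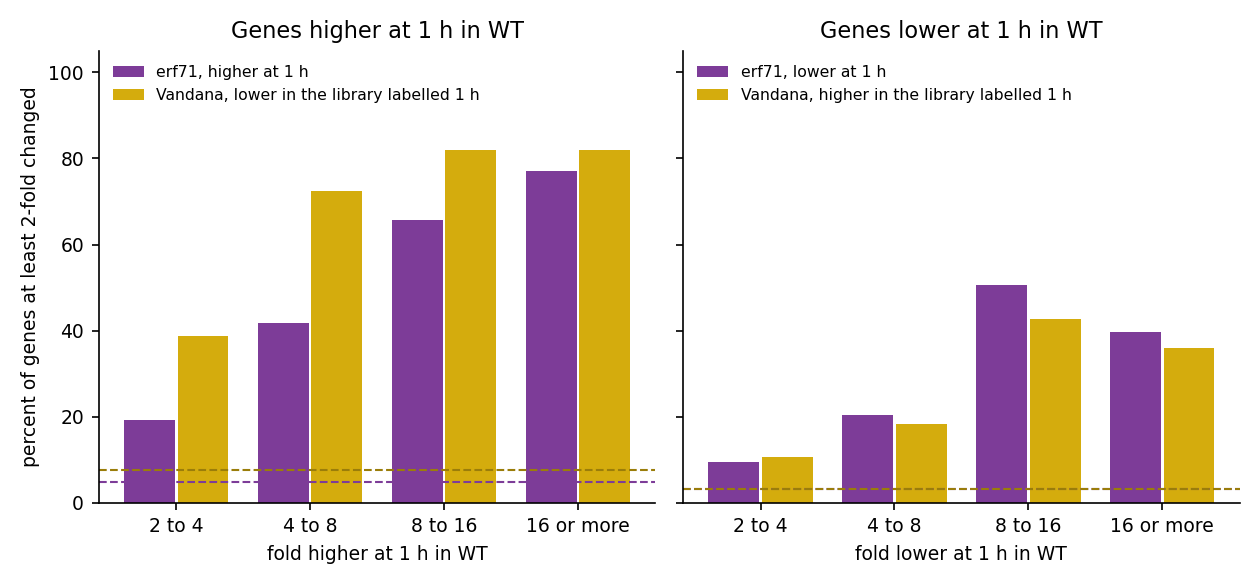
Percent of genes (vertical axis, from 0) changed at least 2-fold in erf71 in the same direction as in WT and in Vandana in the opposite direction. The genes are those above 0 in both WT libraries, grouped by the size of their change in WT (horizontal axis, fold at 1 h over 0 h, higher left and lower right). Dashed lines mark the same percent over all 16350 genes. Among genes 16-fold or more higher in WT the bars reach 77.0% in erf71 and 82.0% in Vandana, against 4.8% and 7.64% over all genes.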

How the data were processed

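Per the labels and the methods, whole plants were frozen, poly(A) RNA was sequenced (base calling with CASAVA 1.8.2), reads were aligned with TopHat2 to the IRGSP-1.0 genome, and the authors quantified genes of the Rice Annotation Project with Cufflinks as FPKM, which they deposited in 1 table with 9 mRNA columns, all matched to a sample. FPKM is scaled to each library's own mapped fragments, so values are relative to the library and depth is unknown. The lincRNA and miRNA tables were not used here. From the FPKM, log2 ratios were computed with Python 3.11.15, numpy 2.4.6 and pandas 2.3.3, with a pseudocount of 0.1 FPKM and a minimum of 5 FPKM in one of the 2 libraries, and the steps were tested on simulated data. The pseudocount makes the ratio understate changes of low genes. With 1 library in a group, no test was run, and a change was called at 2-fold.

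Genes were named by rule: the 12 highest and 12 lowest log2 changes, the 5 largest rises and falls in FPKM, the extremes and most abundant genes of each module, and the genes that the study names. For identifiers without a name or module, at most 2 that increased and 2 that decreased are printed, and the others were counted. No gene descriptions or sequences for these identifiers were used here, so families by description and promoter motifs were not analysed. The members and lists were chosen with earlier results of these data known. The alternatives were the pseudocount, the minimum FPKM, the fold and the scaling.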

Additional observations from a re-analysis of the deposited data

Results flagged for a closer look

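Of the genes named in the text, many that passed the 2-fold threshold in WT passed it in the opposite direction in Vandana (library labelled 1 h over library labelled 0 h, with the labels in doubt as described). The difference was not tested, since each plant had 1 library a time. The 2 jasmonate-linked genes and SNAC1 were among those higher in WT, and their log2 changes in Vandana were -5.05 for OsbHLH148, -4.70 for OsJAZ2 and -2.89 for SNAC1. The AP2/ERF factors OsERF103 (-4.84), OsAP59 (-3.35) and OsAP37 (-1.85) and the zinc finger factors ZFP15 (-4.16), ZFP182 (-3.23) and ZFP252 (-1.66) were lower there as well. So were ONAC132 (-2.21), OsWRKY45 (-1.49), Os04g0543500 (-1.30), Os06g0670300 (-1.14) and the marker Dip1, at -1.92 with 101 FPKM in the library labelled 1 h and 383 FPKM in the library labelled 0 h. The gene similar to HAHB-6, which was lower in WT, was at 1.69 in Vandana. Among the genes known here by identifier, Os08g0137900 (-6.55), Os04g0301500 (-4.91), Os06g0216300 (-3.55) and Os07g0162400 (-1.03), all higher in WT, were lower in Vandana. Os11g0700500 (1.62), Os03g0107300 (1.38), Os10g0377300 (1.21) and Os10g0551800 (1.08), all lower in WT, were higher there. No gene whose values are printed in the text passed 2-fold in opposite directions in WT and erf71, but other genes did. Among genes above 0 in both WT libraries and 16-fold or more higher in WT, 5.06% of 178 were at least 2-fold lower in erf71, against 3.13% of all genes. Of those 16-fold or more lower in WT, 11.3% of 53 were at least 2-fold higher in erf71, against 4.8% of all genes.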

How the results depend on the processing

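The counts of 1607 genes at least 2-fold higher and 1567 lower stayed within 1.5 times under both other pseudocounts, the minimum of 10 FPKM and the 3 scalings, although scaling to the same sum gave 1961 and 1112. They were larger with a minimum of 1 FPKM (2506 higher and 2917 lower) and with no filter on low values (3702 and 4425), where more genes entered, and smaller with a 4-fold threshold (779 and 402). Leaving out the genes listed at 0 in one library, an alternative chosen after seeing the data, gave 1508 and 1532. Of 220 values of the 44 named genes under 5 settings, 2 changed side of the 2-fold threshold, both of the same gene. Scaling turned the sign of 14 values, of 6 genes that were all within 0.18 of 0 on the log2 scale as deposited, and of 0 genes past 2-fold. Of 135 module values, 26 counts moved by more than 1.5 times and 0 medians passed 2-fold or came back from it. The cause of the general shift between the libraries was not tested. No paired analysis was possible because each group had 1 library. With depth unknown, no interval can be given for a low value, and with 1 library at each time no change can be told from variation between plants.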
